A study of Mus musculus and Rattus norvegicus with 2 samples.

Results

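The microRNAs (miRNAs) miR-23a, miR-27a and miR-24 and their paralogs miR-23b and miR-27b were examined in small RNA of caput epididymal sperm from rat and mouse. Members were the sequences whose matched entry, without species prefix, copy number and arm, was 1 of these 5 names. They made up 5 of the 259 miRNA names of the rat library, 5 of the 307 of the mouse library and 5 of the 411 found over both. The names were chosen with earlier read counts by name of these data known, so the counts by name, and the rat over mouse ratios made from them, are descriptions. The rat library came from purified caput sperm of Sprague Dawley young adults weighing 450 g, and the mouse library from purified caput sperm of C57BL/6 mice aged 2 months. Both held the 18 to 45 nt fraction of total RNA, and no treatment or genetic change is named for either. There was 1 library per species with no replicate, so no test between species was possible. Species, strain, age, animals and library cannot be told apart.

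These miRNAs are made from a pair of related clusters, each of which is transcribed as a single precursor that is cut into a miR-23, a miR-27 and a miR-24 hairpin. The 3p arm of each hairpin is the usual guide strand, and the 5p arm is the strand that is mostly degraded. The clusters are known from blood vessels, where they act in the growth of endothelial cells, and from fat tissue, where miR-27 represses the adipocyte regulator Pparg. miR-23 is known to repress glutaminase, and miR-24 acts on genes of the cell cycle and of DNA repair. Mature miRNAs can carry bases at the 3′ end that the genome does not encode, most often U or A, added by terminal nucleotidyltransferases. Sperm passing through the caput, the head of the epididymis, take up small RNAs from vesicles that the duct's epithelium sheds.

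In the mouse genome (RefSeq, build GRCm38.p6), Mir23a, Mir27a and Mir24-2 lie within 404 nt on chromosome 8, at chr8:84208518-84208921 on the plus strand. They lie outside protein-coding genes of the GENCODE vM21 annotation, and the end of Mir24-2 touches the lincRNA gene Gm26532. Mir23b, Mir27b and Mir24-1 lie within 792 nt on chromosome 13, at chr13:63300484-63301275 on the plus strand, inside the protein-coding gene 2010111I01Rik on the same strand and inside Fancc on the other. Mir27b falls within an exon of 2010111I01Rik that is annotated as UTR. Mir24-1 overlaps exons of the same gene. Opposite Mir24-1 and Mir24-2, on the minus strand, the annotation places a pair of other miRNA genes, Mir3074-1 and Mir3074-2. The mature miR-24-3p sequence is the same from both loci, so its reads could not be given to a cluster.

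The mature 3p sequences are shown because the seed sets the targets and the base at position 19 alone tells the paralogs apart. They are the mouse sequences of RefSeq (GRCm38.p6), 5′ to 3′, with the seed, bases 2 to 8, in capitals. miR-23a-3p and miR-23b-3p share the seed UCACAUU, miR-27a-3p and miR-27b-3p share UCACAGU, and miR-24-3p has GGCUCAG.
miR-23a-3p: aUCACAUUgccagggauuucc
miR-27a-3p: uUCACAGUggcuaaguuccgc
miR-27b-3p: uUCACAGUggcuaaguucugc
miR-24-3p: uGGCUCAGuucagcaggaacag

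The reads carried the same letters in rat and mouse. The 21-nt reads of the paralogs, copied from the deposited sequences with position 19 in capitals, counted from 1 at the 5′ end, are given next. They differed by T19A between miR-23a-3p and miR-23b-3p and by C19T between miR-27a-3p and miR-27b-3p, so a read of 18 nt cannot tell a paralog from its partner.
miR-23a-3p read: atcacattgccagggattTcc
miR-23b-3p read: atcacattgccagggattAcc
miR-27a-3p read: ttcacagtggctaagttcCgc
miR-27b-3p read: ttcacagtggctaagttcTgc

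In rat 14652889 reads were listed, over 650877 sequences, and in mouse 11760708 reads over 914516 sequences. The number of animals behind each library is not given in the sources used here. Levels are given as reads per 1000000 listed reads (rpm). Reads under miRBase entries made up 1.73% of the rat and 4.96% of the mouse listed reads. The snoRNA SNORD58 alone took 0% of the rat and 34.2% of the mouse listed reads. Leaving it out of the totals shifts every log2 ratio of rat over mouse by -0.60, and taking miRBase reads as the totals shifts every ratio by 1.52. Intervals in parentheses are exact 95% intervals. They cover counting error only, since reads copied by PCR without molecular identifiers are not independent molecules.

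miR-27b-3p was the most abundant member by name in both libraries, and miR-24-3p went the other way from the other 3p arms. miR-27b-3p had 3461 reads in rat and 750 in mouse, which is 236 rpm (228 to 244) in rat and 63.8 rpm (59.3 to 68.5) in mouse. Its level was 3.70-fold higher in rat, a log2 ratio of 1.89 (1.77 to 2.00). It ranked 12 of 377 miRNA names in rat and 24 of 391 in mouse. Its paralog miR-27a-3p, with the same seed, was far less abundant, at 172 reads or 11.7 rpm in rat and 42 reads or 3.57 rpm in mouse. The log2 ratio of miR-27a-3p was 1.72 (1.22 to 2.24), and its interval overlapped that of miR-27b-3p.

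miR-23a-3p had 75 reads in rat and 30 in mouse, or 5.12 rpm in rat and 2.55 rpm in mouse, a log2 ratio of 1.005 (0.38 to 1.67). miR-23b-3p had 52 reads in rat and 22 in mouse, or 3.55 rpm in rat and 1.87 rpm in mouse, a log2 ratio of 0.92 (0.18 to 1.71). By name both miR-23 paralogs were higher in rat by more than counting error gives, a direction that miR-23b-3p did not keep by sequence. With SNORD58 left out of the totals, the intervals by name included equal levels, at 0.40 (-0.23 to 1.06) for miR-23a-3p and 0.32 (-0.42 to 1.11) for miR-23b-3p. Their intervals overlapped each other within each library. miR-24-3p had 109 reads in rat and 254 in mouse, or 7.44 rpm (6.11 to 8.97) in rat and 21.6 rpm (19.0 to 24.4) in mouse. Its log2 ratio was -1.54 (-1.88 to -1.21), 2.90-fold higher in mouse. With miRBase reads as the totals this ratio was -0.021, and by the number of distinct sequences it was 0.87.

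Ordered by level, the rat library had miR-27b-3p, miR-27a-3p, miR-24-3p, miR-23a-3p and miR-23b-3p. The mouse library had miR-27b-3p, miR-24-3p, miR-27a-3p, miR-23a-3p and miR-23b-3p. The intervals of neighbours overlapped between miR-24-3p, miR-23a-3p and miR-23b-3p in rat, and between miR-27a-3p, miR-23a-3p and miR-23b-3p in mouse. In the plot of levels, the rat points lie above the mouse points for 4 of the 5 arms by name and below for miR-24-3p.

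**Figure D1:**
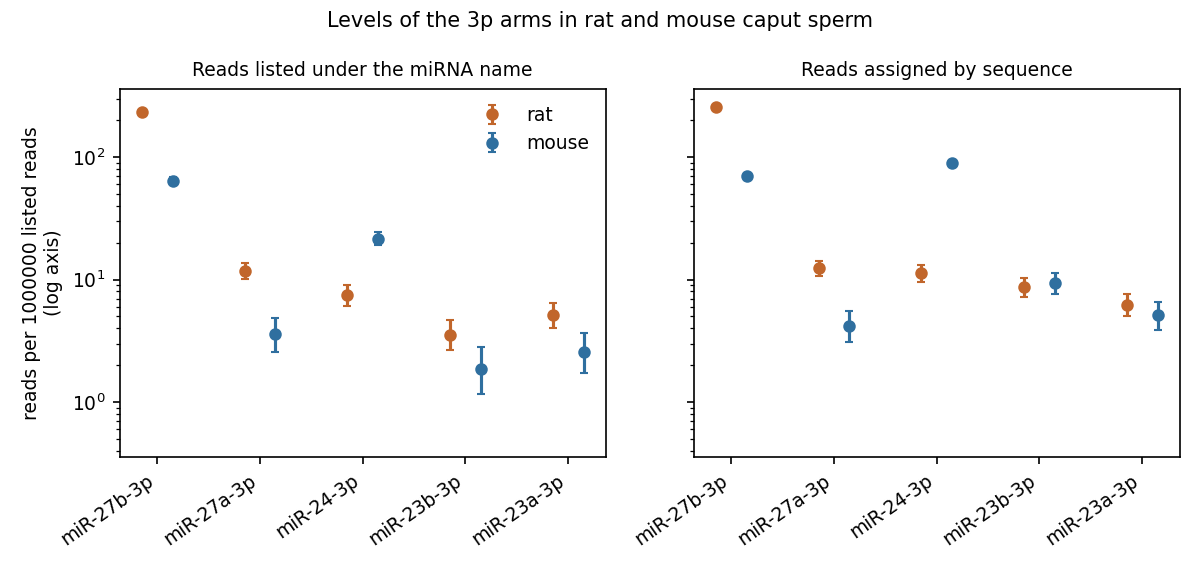
Reads per 1000000 listed reads (log axis) of the 5 3p arms in the rat and mouse library, 1 library each, by the listed name (left) and by sequence (right), with bars for exact 95% counting intervals. miR-27b-3p is at 236 rpm in rat and 63.8 rpm in mouse by name, and miR-24-3p at 11.3 rpm in rat and 88.9 rpm in mouse by sequence.

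The passenger 5p arms were rare. miR-24-2-5p had 10 reads in rat and 5 in mouse, miR-27b-5p had 7 in rat and 2 in mouse, and miR-27a-5p had 1 in rat and 3 in mouse. The intervals of these ratios all included equal levels. miR-23a-5p, miR-23b-5p and miR-24-1-5p had 0 reads in both libraries, and the limit for a count of 0, set at 3 reads, is 0.205 rpm in rat and 0.255 rpm in mouse. The 5p arms together made up 0.463% (0.275 to 0.731) of member reads in rat and 0.903% (0.434 to 1.65) in mouse. These intervals overlapped.

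Of the 5 3p arms, 4 had at least 100 reads over both libraries by name, and miR-23b-3p, with fewer, was left out of this count. Among the 4, 3 were at least 2-fold higher in rat, beside 54.7% of the 86 miRNAs compared by name at the same minimum. Another 1 was at least 2-fold lower, beside 15.1%. Since the names were chosen on this contrast, nothing is read from these shares. miR-23a-3p lay just past 2-fold, at 2.01-fold, and miR-23b-3p just short of it, at 1.90-fold. The median log2 ratio was 1.36 over the 4 arms and 1.02 over all 86 miRNAs. Set against that median, miR-23a-3p was at -0.01, miR-27a-3p at 0.70, miR-27b-3p at 0.87 and miR-24-3p at -2.55.

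The names do not hold all reads of these miRNAs. The longest read listed under each of the 5 3p names had 21 nt, or 22 nt for miR-24-3p, in both libraries, and for the 4 arms whose mature sequences are shown above these lengths equal theirs. Longer reads of the same miRNA were listed under GenBank microRNA records. Reads of 18 to 30 nt were therefore also assigned by sequence, whatever their entry, when they held bases 2 to 18 of the mature sequence, with paralogs parted by base 19. For miR-23b-3p the bases and the start were those of miR-23a-3p, with which its reads agree up to base 18. This assignment did not use the names on which the members were chosen, but part of its reads for each 3p arm, and most for miR-27, are the same reads. Of miR-27b-3p reads assigned this way, 91.7% in rat and 90.7% in mouse stood under the miRBase name. The share was 68.1% in rat and 48.3% in mouse for miR-23a-3p, 39.4% in rat and 20% in mouse for miR-23b-3p, and 64.8% in rat and 24.3% in mouse for miR-24-3p.

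By sequence, miR-24-3p was the most abundant member of the mouse library, and the difference from rat was larger than by name. It had 165 reads in rat and 1046 in mouse, or 11.3 rpm (9.61 to 13.1) in rat and 88.9 rpm (83.6 to 94.5) in mouse. The level was 7.90-fold higher in mouse, a log2 ratio of -2.98 (-3.23 to -2.74). It ranked 71 of 341 miRNA sequences in rat and 21 of 311 in mouse, among those compared. That set may lack some miRNAs that are listed by name. The reads that the name missed stood mostly under records matched on the minus strand, with 34.5% of the arm's reads in rat and 74.2% in mouse. In mouse these records were Mir3074-2 with 675 reads and Mir3074-1 with 101, and another 16 reads stood under the miR-3074-5p name, also on the minus strand. The minus strand of these genes is the strand that carries Mir24-1 and Mir24-2. Without minus-strand records, an alternative chosen after seeing the data, the ratio by sequence was -1.55 (-1.89 to -1.22), from 108 reads in rat and 254 in mouse. A further 1 minus-strand read of Mir3074-2 and 2 of Mir3074-1 did not hold the miR-24-3p core.

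The miR-23 paralogs did not keep their difference. By sequence miR-23b-3p had 127 reads in rat and 110 in mouse, or 8.67 rpm in rat and 9.35 rpm in mouse, a log2 ratio of -0.11 (-0.49 to 0.27). miR-23a-3p had 91 reads in rat and 60 in mouse, or 6.21 rpm in rat and 5.10 rpm in mouse, a log2 ratio of 0.28 (-0.20 to 0.78). Both intervals include equal levels, and that of miR-23a-3p reaches up to 0.78. With SNORD58 also left out of the total, the ratios were -0.71 for miR-23b-3p and -0.32 for miR-23a-3p.

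The miR-27 paralogs hardly moved. By sequence miR-27b-3p had 3739 reads in rat and 819 in mouse, or 255 rpm in rat and 69.6 rpm in mouse, a log2 ratio of 1.87 (1.76 to 1.98). miR-27a-3p had 181 reads in rat and 49 in mouse, or 12.4 rpm in rat and 4.17 rpm in mouse, a log2 ratio of 1.57 (1.11 to 2.05). Without SNORD58 in the total the ratio was 1.27 for miR-27b-3p and 0.96 for miR-27a-3p. Thus 2 of the 5 arms were at least 2-fold higher in rat by sequence, beside 45.2% of 93 miRNAs, 1 was at least 2-fold lower, beside 19.4%, and 2 lay between. Since many of these reads also stood under the names, nothing is read from these shares. The median was 0.28 over the 5 arms and 0.83 over the 93 miRNAs. Against the median of these 93, miR-27b-3p was at 1.04 and miR-24-3p at -3.81. The 93 leave out some miRNAs that reach the minimum by name, such as miR-143-3p and miR-34c-5p. This median and these shares therefore do not cover all miRNAs.

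**Figure D2:**
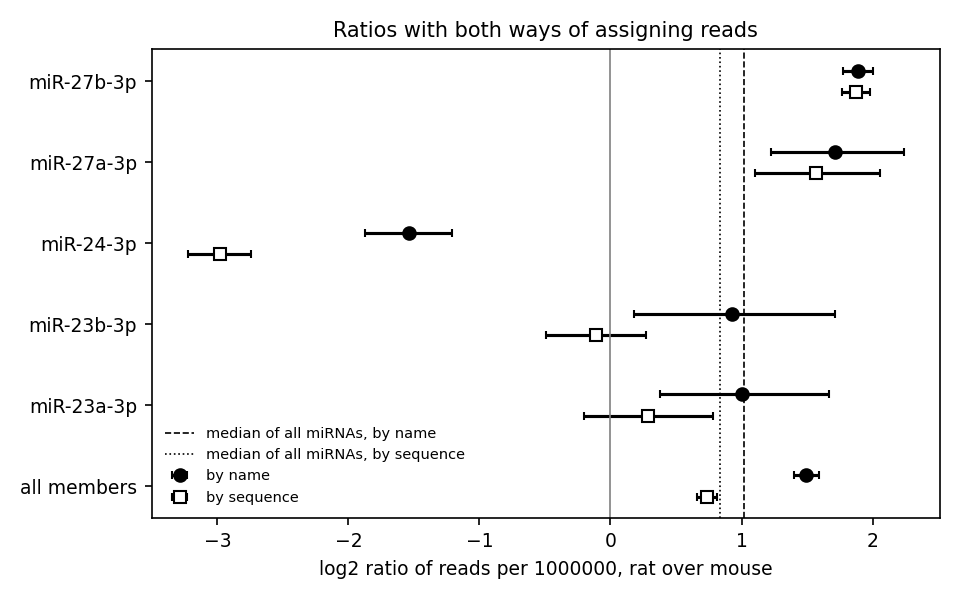
Log2 ratio of reads per 1000000, rat over mouse, for each 3p arm and for all members summed, by name (filled) and by sequence (open), with exact 95% counting intervals. Vertical lines mark equal levels and the median over the miRNAs compared by name (1.02) and by sequence (0.83). The miR-24-3p points lie at -1.54 and -2.98.

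Summed over all members, the level was 265 rpm in rat and 94.2 rpm in mouse by name, a log2 ratio of 1.49 (1.40 to 1.59). By sequence it was 297 rpm in rat and 179 rpm in mouse, a log2 ratio of 0.73 (0.66 to 0.81). By sequence without miR-24-3p the ratio was 1.67 (1.57 to 1.77). miR-27b-3p made up 89.0% of member reads in rat and 67.7% in mouse by name, and 85.9% in rat and 39.0% in mouse by sequence. miR-24-3p made up 2.80% in rat and 22.9% in mouse by name, and 3.79% (3.24 to 4.40) in rat and 49.8% (47.6 to 51.9) in mouse by sequence. The sum therefore stands mainly for miR-27b-3p in rat, and for miR-24-3p and miR-27b-3p in mouse.

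**Figure D3:**
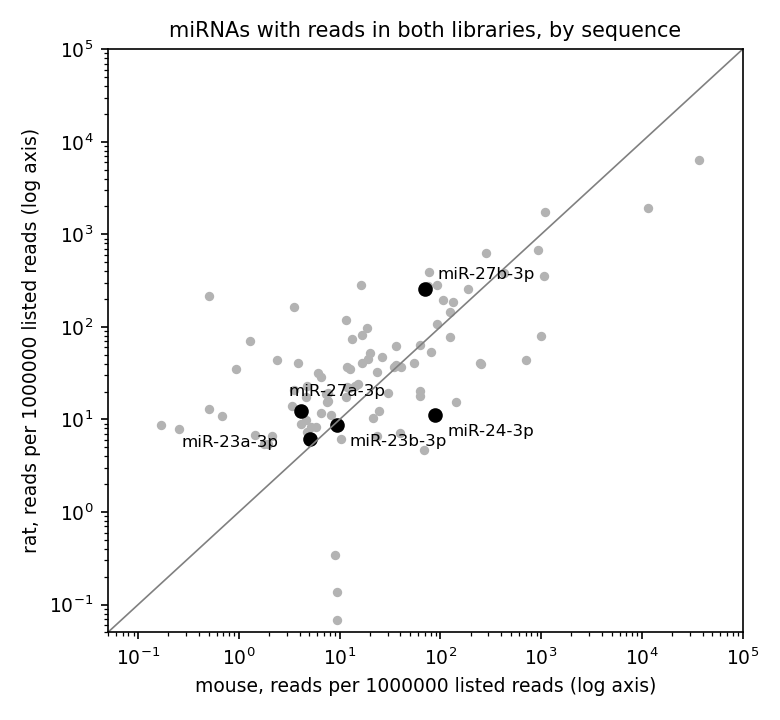
Reads per 1000000 listed reads by sequence, mouse on the horizontal and rat on the vertical log axis, with the 5 3p arms in black. Shown are 93 miRNAs with at least 100 reads over both libraries and a read in each. Some that pass this minimum by name, such as miR-143-3p and miR-34c-5p, are not among them. The grey line marks equal levels. miR-27b-3p (255 rpm in rat, 69.6 rpm in mouse) lies above the line and miR-24-3p (11.3 rpm in rat, 88.9 rpm in mouse) below it.

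Within each pair of paralogs, the intervals of the shares overlapped between the libraries. miR-27a-3p, which comes from chromosome 8 in mouse, made up 4.62% (3.98 to 5.32) of miR-27-3p reads in rat and 5.65% (4.21 to 7.39) in mouse by base 19. By name it made up 4.73% (4.07 to 5.48) in rat and 5.30% (3.85 to 7.10) in mouse. miR-23a-3p made up 59.1% (49.98 to 67.7) of miR-23-3p reads in rat and 57.7% (43.2 to 71.3) in mouse by name. By base 19 it made up 41.7% (35.1 to 48.6) in rat and 35.3% (28.1 to 43.0) in mouse, because a larger part of the miR-23b-3p than of the miR-23a-3p reads stood outside the name. Thus miR-23a-3p had more reads of its pair by name and miR-23b-3p by base, in both species. By name the intervals included equal shares. In rat, 11 of the 75 reads named miR-23a-3p were too short to tell the paralogs apart. miR-27b-3p, from chromosome 13 in mouse, thus made up nearly all miR-27-3p reads. miR-23b-3p, from the same mouse cluster, made up the larger part of miR-23-3p reads by base 19. Over miR-23-3p and miR-27-3p together, miR-23a-3p and miR-27a-3p made up 6.57% (5.84 to 7.37) in rat and 10.5% (8.70 to 12.5) in mouse by base 19. These intervals did not overlap. By name the same arms made up 6.57% (5.80 to 7.41) in rat and 8.53% (6.73 to 10.6) in mouse, where the intervals overlapped.

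Among reads under the names that held bases 2 to 18, 123 were miR-23-3p in rat and 51 in mouse. For miR-27-3p there were 3595 in rat and 791 in mouse. None had at base 19 the base of the other paralog, and 4 miR-27-3p reads in rat had a base of neither. Too short for base 19 were 11 miR-23-3p and 12 miR-27-3p reads in rat, and 6 miR-27-3p reads in mouse. Reads of 18 nt that end before base 19 were nevertheless given a paralog name. The first of them is shown because the tables name it differently in each species, miR-27a-3p in rat with 12 reads and miR-27b-3p in mouse with 6. The second was listed as miR-23a-3p in rat with 11 reads.
miR-27-3p, 18 nt: ttcacagtggctaagttc
miR-23-3p, 18 nt: atcacattgccagggatt

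Among the reads that could be assigned by sequence, the 5′ ends, which set the seed, were nearly fixed. Reads that start inside the stretch of bases required for assignment lack part of it, so they were not counted. The shares therefore cannot show how frequent such later starts were. By sequence, 99.8% of miR-27b-3p reads in rat and 99.8% in mouse began at the reference start, as did 97.6% of miR-24-3p reads in rat and 99.0% in mouse. miR-27a-3p reads all did, 181 in rat and 49 in mouse. miR-23b-3p had the lowest share among the 3p arms, 96.1% (91.1 to 98.7) in rat and 89.1% (81.7 to 94.2) in mouse, and these intervals overlapped.

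The 3′ ends differed widely, and the forms that carry this result follow, with bases that did not match the listed entry at the 3′ end in capitals. The deposited letters are DNA, so a T stands for U in the RNA. The 23-nt form of miR-24-3p ends in a U after the complete mature sequence, and the 24-nt form of miR-23b-3p has an extension that matched its entry before the U.
miR-24-3p, 23 nt with U: tggctcagttcagcaggaacagT
miR-24-3p, 23 nt with A: tggctcagttcagcaggaacagA
miR-24-3p, 20 nt: tggctcagttcagcaggaac
miR-23b-3p, 24 nt with U: atcacattgccagggattaccacT
miR-27b-3p, 20 nt: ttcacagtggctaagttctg
miR-27b-3p, 22 nt with U: ttcacagtggctaagttctgcT

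The 23-nt form of miR-24-3p with U had 45 reads in rat and 660 in mouse, which is 27.3% of the arm's reads in rat and 63.1% in mouse. Its level was 3.07 rpm in rat and 56.1 rpm in mouse. The 23-nt form with A had 8 reads in rat and 76 in mouse. The 20-nt form, cut short by a pair of bases, had 57 reads in rat and 62 in mouse, 34.5% of the arm in rat and 5.93% in mouse. Its level was 3.89 rpm in rat and 5.27 rpm in mouse, so the difference in miR-24-3p between the libraries lay mostly in the complete and tailed forms. The complete 22-nt form without a tail had 1.30 rpm in rat and 12.1 rpm in mouse.

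miR-27b-3p was shorter than its reference in both libraries. The 20-nt form had 1877 reads in rat and 501 in mouse, 50.2% of the arm in rat and 61.2% in mouse. The 21-nt form had 1372 reads in rat and 227 in mouse, 36.7% in rat and 27.7% in mouse. The 22-nt form with U had 199 reads in rat and 47 in mouse, 5.32% in rat and 5.74% in mouse. Reads with no tail at 20 and 21 nt thus made up most of this arm in each library. Mismatches inside the miR-27b-3p reads were few, and the most frequent in rat was A4G, in 8 of 3461 reads listed by name or 0.231%.

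miR-27a-3p had its 20-nt form as the leading read in rat, with 84 reads in rat and 15 in mouse. The 21-nt form led in mouse, with 41 reads in rat and 20 in mouse. miR-23a-3p led with the 21-nt form in both, at 43 reads in rat and 22 in mouse. miR-23b-3p had its 24-nt form with U in 37 reads in rat and 52 in mouse, 29.1% of the arm in rat and 47.3% in mouse. The untailed 21-nt form of miR-23b-3p also had 37 reads in rat, and had 20 in mouse.

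**Figure D4:**
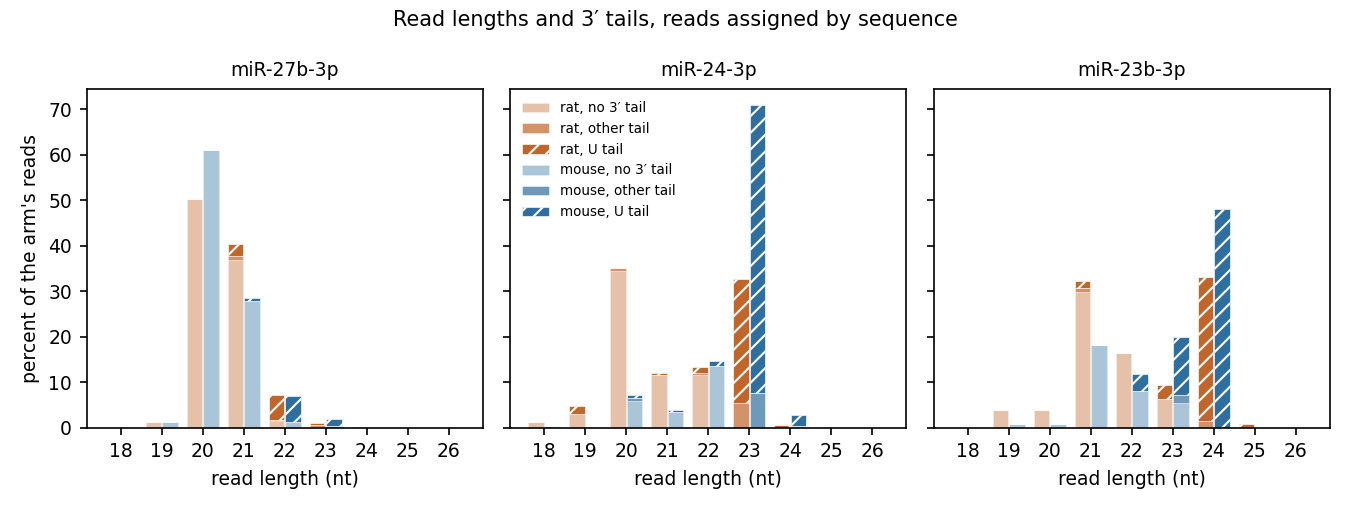
Percent of each arm's reads (by sequence) at each read length in nt for miR-27b-3p, miR-24-3p and miR-23b-3p, rat bars left of mouse bars, stacked by reads with no 3′ tail, another tail and a U tail (hatched). miR-27b-3p peaks at 20 nt in both libraries, and the 23-nt bar of miR-24-3p, mostly U-tailed, holds 70.9% of the mouse reads.

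A U tail, 1 or more unmatched U at the 3′ end, was most frequent on miR-24-3p and miR-23b-3p in both libraries. By sequence it was on 31.5% (24.5 to 39.2) of miR-24-3p reads in rat and 67.8% (64.9 to 70.6) in mouse. On miR-23b-3p it was on 37.0% (28.6 to 46.0) in rat and 64.5% (54.9 to 73.4) in mouse. For both arms the share was higher in mouse by more than counting error gives. Tailed full-length reads are counted only where a record other than the name lists them. Whether such listing differs between the species was not tested. On miR-27b-3p it was on 8.45% (7.58 to 9.39) in rat and 7.81% (6.07 to 9.87) in mouse, and on miR-23a-3p on 7.69% in rat and 10% in mouse. On miR-27a-3p it was on 19.9% (14.3 to 26.5) in rat and 8.16% (2.27 to 19.6) in mouse, with overlapping intervals, and in rat its interval also overlapped that of miR-24-3p. Paralogs with the same seed differed here: the U-tailed share of miR-23b-3p lay above that of miR-23a-3p in both libraries, with intervals apart.

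Among the miRNAs compared by sequence with at least 100 reads in a library, the median U-tailed share was 3.64% over 84 miRNAs in rat. It was 4.48% over 61 in mouse. This set may leave out some miRNAs, as the set used for the ratios by sequence did. miR-23b-3p ranked 1 of 84 and miR-24-3p ranked 4 of 84 in rat. In mouse miR-24-3p ranked 2 of 61 and miR-23b-3p ranked 3 of 61. miR-27b-3p ranked 27 of 84 in rat and 22 of 61 in mouse. Reads listed by name show few of these tails, with U on 3.67% of miR-24-3p reads in rat and 3.54% in mouse, since a tailed full-length read is longer than the name's entry. Over all other reads under microRNA entries, miR-10 left out, the U-tailed share was 7.08% in rat and 4.31% in mouse, higher in rat, whereas the median over miRNAs given above was higher in mouse.

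**Figure D5:**
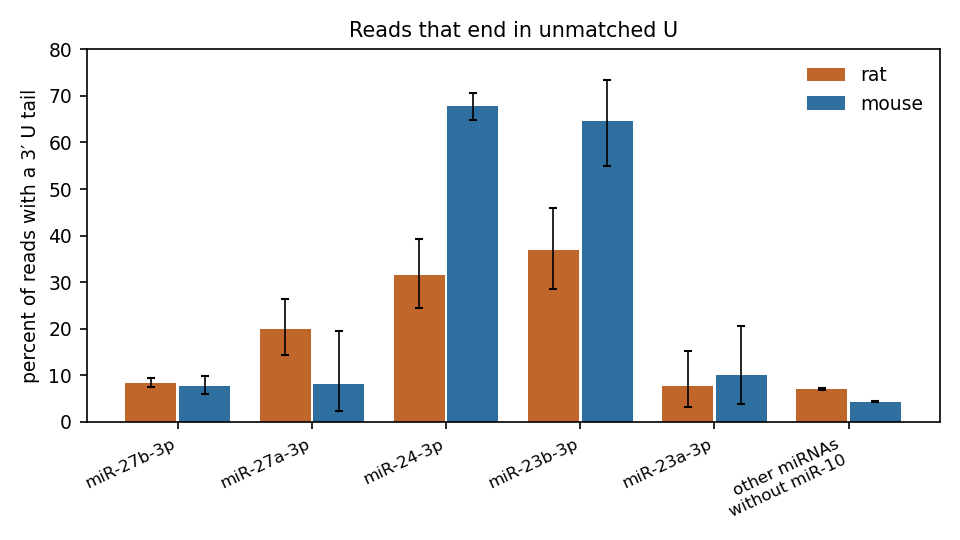
Percent of reads that end in unmatched U, for each 3p arm (by sequence) and for all other reads under microRNA entries without miR-10 (by listed entry), rat bars left of mouse bars, with exact 95% counting intervals. miR-24-3p stands at 31.5% in rat and 67.8% in mouse, and miR-27b-3p at 8.45% in rat and 7.81% in mouse.

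Among 82 miRNAs compared by name, those with levels nearest to miR-27b-3p over both libraries, by distance in log2 rpm, were miR-26a-5p, miR-22-3p and miR-141-3p. miR-21a-5p was not compared by name. By sequence it stood at 283 rpm in rat and 92.8 rpm in mouse, beside 255 rpm and 69.6 rpm for miR-27b-3p. The 3 named are therefore nearest only within the 82. miR-26a-5p stood at 283 rpm in rat and 78.0 rpm in mouse, a distance of 0.39, and miR-22-3p at 390 rpm in rat and 77.9 rpm in mouse. miR-141-3p, an epithelial miRNA, stood at 195 rpm in rat and 107 rpm in mouse. With 2 libraries this likeness says only that the levels are near each other.

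Since the clusters are known from vessels, a list of 11 vascular and mesenchymal miRNA names was set beside them. All 11 names were listed in both libraries, and they summed to 2137 rpm in rat and 946 rpm in mouse, a log2 ratio of 1.18. Of the 5 arms compared by name with at least 100 reads, 3 were at least 2-fold higher in rat and 0 at least 2-fold lower, with a median of 1.15. The list member miR-21a-5p was not among these 5, though by sequence it stood at 283 rpm in rat and 92.8 rpm in mouse. Over all 86 miRNAs compared by name 54.7% were higher and 15.1% lower, with a median of 1.02, so the 5 arms lay near the background. miR-126a, the defining endothelial miRNA, summed to 26.96 rpm in rat and 15.7 rpm in mouse. The 5 muscle names, led by miR-143, summed to 1855 rpm in rat and 847 rpm in mouse. miR-143 and miR-145a are on both the muscle and the vascular list, so the sums of these lists share reads. The 7 epithelial names, of which miR-203 was not listed in rat, summed to 370 rpm in rat and 225 rpm in mouse. By name 4 of 6 arms were at least 2-fold higher in rat and 1 lower, again near the 54.7% and 15.1% of the 86 miRNAs. By sequence miR-203-3p was found in rat, at 9.01 rpm beside 4.17 rpm in mouse. miR-200b-3p, at 38.5 rpm in rat and 36.6 rpm in mouse, and miR-205-5p, at 32.3 and 23.3 rpm, then fell short of 2-fold. miR-200a-3p and miR-429-3p stayed past it, and miR-200c-3p stayed lower in rat.

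Markers of other cells were summed by name, and those of germ cells and leukocytes differed between the libraries by more than counting error gives. The 3 germ cell names, all listed in both libraries, summed to 900 rpm in rat and 14.2 rpm in mouse. The 4 leukocyte names summed to 17.5 rpm in rat and 0.765 rpm in mouse, where miR-155 and miR-223 were not listed. Of the 3 erythroid names, miR-486 was not listed in rat and miR-144 not in mouse. Their sums by name were 5.53 rpm in rat and 7.14 rpm in mouse. The log2 ratio was -0.37 (-0.83 to 0.09), which includes equal levels. By sequence, however, the erythroid miR-451a alone stood at 34.7 rpm in rat and 0.935 rpm in mouse, so the sums by name miss reads of this marker. The part of these cells in the levels of miR-27b-3p and miR-24-3p was not tested. Fewer cells of a type and less RNA per cell cannot be told apart in these samples.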

How the data were processed

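Small RNA (18 to 45 nt) was sequenced from 1 rat and 1 mouse library of caput sperm. Per the file headers, the deposited tables hold read counts per distinct sequence, each with 1 matched entry and at most 2 mismatches. Bowtie 0.12.7, mm9 and rn5 are named in the submitters' processing notes, and trimming is not given in the sources used here. Of the sequence numbers, 51.3% were listed in rat and 40.6% in mouse, and totals are of listed reads. Minus-strand sequences were turned. A tail is a run of listed mismatches reaching the 3′ end, and forms with at least 20 reads are described. A pseudocount of 0.5 read was used only where a count was 0. The members and lists were chosen with earlier results of these data known. Named were every member arm and the 3 miRNAs nearest to the most abundant one among those compared by name. Ratios have exact conditional binomial intervals and shares Clopper-Pearson intervals (95%, SciPy 1.17.1), with no test. Assignment, total, minimum, mismatches and the leading sequence were varied. Read assignment and tail calls were tested on simulated data. Sequences and loci are from RefSeq (GRCm38.p6) and GENCODE vM21, not the authors' builds. 8 of the 11 arms searched had reads by name.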

Additional observations from a re-analysis of the deposited data

How the results depend on the processing

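The log2 ratio of the members summed, 1.49 by name, kept its sign under every alternative run. It was 3.01 with miRBase reads as the total, 0.89 without SNORD58, 0.73 by sequence, 1.88 by distinct sequences and 1.86 without each member's leading sequence. Among alternatives chosen after seeing the data, it was 1.40 by sequence without minus-strand records, 1.83 without miR-24, and 0.13 by sequence without SNORD58. Arms at least 2-fold lower numbered 2 with a minimum of 1 read and 0 with the miRBase total. Some arms reversed. miR-24-3p was at 0.87 by distinct sequences. By sequence, with or without minus-strand records, miR-23b-3p was at -0.11 and miR-27a-5p at 0.68, and without SNORD58 too miR-23b-3p was at -0.71 and miR-27a-5p at 0.079. miR-27a-5p was at 0.49 by distinct sequences, and by sequence without SNORD58 miR-23a-3p was at -0.32 and miR-24-2-5p at -0.073. By base 19 the miR-23a-3p share was 41.7% in rat and 35.3% in mouse. By sequence miR-27b-3p made up 85.9% in rat and 39.0% in mouse, and miR-24-3p 3.79% in rat and 49.8% in mouse. The leading length by name, 20 nt for miR-27b-3p, held 50.2% in rat and 61.2% in mouse by sequence, and 57.0% in rat without mismatched reads. For miR-24-3p the leading lengths by name held 35.2% in rat and 14.7% in mouse by sequence. The assignment itself moves these values, and the cause of the others was not tested. Among the ratios of single arms and the shares of the arms other than miR-27b-3p and miR-24-3p, 79 were unchanged within counting error, 24 moved and 10 reversed. By sequence without minus-strand records miR-24-3p was at -1.55, against -2.98 with them. No paired analysis was possible because each species had 1 library. Arms with under 10 reads have intervals too wide to place.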
